A study of Mus musculus with 354 samples.

Results

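The genes described here are a set of 10 that a fasting liver uses to make glucose and to build or break down glycogen: G6pc, Pck1, Fbp1, Ppargc1a, Tat, Igfbp1, Ppp1r3b, Ppp1r3c, Gys2 and Pygl. A gene entered through probe sets annotated to its symbol and to no other gene. That left 9 of the 10 genes, each of which also passed the filter on dim signals, among 14125 genes tested on the arrays. Ppargc1a, which codes for a transcriptional coactivator of gluconeogenesis, had 5 probe sets, all of them annotated to Asic2 as well, and it has no value here.

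Livers came from 354 male mice of 45 inbred Collaborative Cross strains, a panel of recombinant inbred lines that carry mixtures of several founder genomes. Of these mice, 175 received tolvaptan, a vasopressin V2 receptor antagonist, and 179 received the vehicle and are called Control. All mice, Control included, were fasted for about 18 h before the livers were taken 24 h after treatment, and all were about 8 to 10 weeks old when dosing began. The dose of tolvaptan is not given in the sources used here. There were 90 groups, 1 for each strain under each treatment: 85 groups had 4 mice, 4 had 3 and 1 had 2.

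Each sample was a piece of the median lobe, so every level is an average over all cell types of the liver, in which fewer cells of a type and less RNA per cell cannot be told apart. Glucose leaves the hepatocyte at the end of gluconeogenesis, which runs from lactate, glycerol and amino acids through phosphoenolpyruvate carboxykinase, fructose-1,6-bisphosphatase and glucose-6-phosphatase. Glucagon and glucocorticoids raise the transcription of several of these genes during a fast, and insulin, acting through the FOXO factors, lowers it. Glycogen is made by glycogen synthase and broken down by glycogen phosphorylase, and targeting subunits of protein phosphatase 1 bring the phosphatase to glycogen, where it activates the synthase and inactivates the phosphorylase.

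Whole-series features that touch these results were the following. Array values were log2 RMA values with array medians between 2.81 and 3.02. The mean log2 level of 4 hepatocyte markers lay between 12.73 and 13.41 in Control livers and between 12.76 and 13.45 in tolvaptan livers, with albumin (Alb) never under 13.29. On 34 arrays (27 Control and 7 tolvaptan, in 19 strains) the profile of strain-separating probe sets correlated at no more than 0.40 with the other mice of the labelled strain, against at least 0.68 on every other array. They are called arrays off their labelled strain below, and values without them are given beside the calls, the strain orders and extremes, and the correlations of strain means. The arrays fell into 6 scan days, and scan 1 held 1 mouse per strain and treatment. Of 10 marker lists for cell types that a piece of liver could hold, 8 held no gene called for tolvaptan. Among these 8, the adipocyte list had 0 genes tested and the erythroid list 1. The exceptions were Stab2 of the sinusoidal endothelium and Cela2a of the exocrine pancreas.

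The promoters of G6pc, Igfbp1 and Tat are printed because the levels of these 3 genes moved together from mouse to mouse, as described further on. Each is the 250 bases before the start site on the plus strand, from RefSeq on build GRCm38.p6. Capitals mark the insulin response core CAAAACA or its reverse complement TGTTTTG, an element that FOXO proteins can bind in genes such as G6pc and Igfbp1.
G6pc, chr11:101367466-101367715: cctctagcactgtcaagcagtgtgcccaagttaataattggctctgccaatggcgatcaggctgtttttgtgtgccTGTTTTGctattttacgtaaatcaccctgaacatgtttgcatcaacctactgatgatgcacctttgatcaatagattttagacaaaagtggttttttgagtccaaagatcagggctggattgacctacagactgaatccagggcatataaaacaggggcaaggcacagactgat
Igfbp1, chr11:7197537-7197786: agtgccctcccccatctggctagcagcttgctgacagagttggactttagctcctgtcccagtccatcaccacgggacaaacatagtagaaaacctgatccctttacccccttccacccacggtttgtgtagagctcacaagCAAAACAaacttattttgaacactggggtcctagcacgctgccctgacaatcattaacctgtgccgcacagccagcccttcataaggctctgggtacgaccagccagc
Tat, chr8:109990186-109990435: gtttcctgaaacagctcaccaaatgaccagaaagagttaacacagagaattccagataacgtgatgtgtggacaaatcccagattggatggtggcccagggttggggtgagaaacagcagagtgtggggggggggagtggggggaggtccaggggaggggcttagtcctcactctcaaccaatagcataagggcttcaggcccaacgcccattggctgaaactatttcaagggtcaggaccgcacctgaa

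The core begins at position -174 of G6pc, on the minus strand, and at position -108 of Igfbp1, on the plus strand, counted from the base before the start site as -1. The 250-base window of Tat does not hold these letters. Of 8 members with a promoter in the RefSeq table, G6pc and Igfbp1 held CAAAACA on either strand, a match found in 5.56% of all 32841 promoters. The FOXO consensus GTAAACA, present in 3.17% of promoters on either strand, was in no member's window. The cAMP response element TGACGTCA, present in 1.55%, was in none either, while its variant TTACGTCA, present in 0.448% of promoters on either strand, was at position -93 of Pck1. These matches describe letters in a window and say nothing of binding in these livers.

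Averaged over the 45 strains, tolvaptan left 0 of the 9 genes called at an adjusted p under 0.05 (limma, Benjamini-Hochberg over all 14125 genes), beside 70 genes, or 0.496%, called among all genes. Before adjustment, 2 of the 9 had a p under 0.05: Ppp1r3c, which was lower, and Gys2, which was higher. The share of all genes under that unadjusted cut is not given here, so this count is a description without a background. The median change of the 9 genes was -0.0077 on the log2 scale, and that of all genes tested was 0.00027. When only the 26 strains without an array off its labelled strain were used, Ppp1r3c (-0.36, adjusted p = 0.0463 by limma) and Gys2 (0.17, adjusted p = 0.0317) passed, among 300 genes called in all. When all 45 strains were kept and only the 34 arrays were left out, 0 of the 9 passed, with an adjusted p of 0.19 for Ppp1r3c and of 0.249 for Gys2, and 44 genes (0.312%) were called in all.

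**Figure D1:**
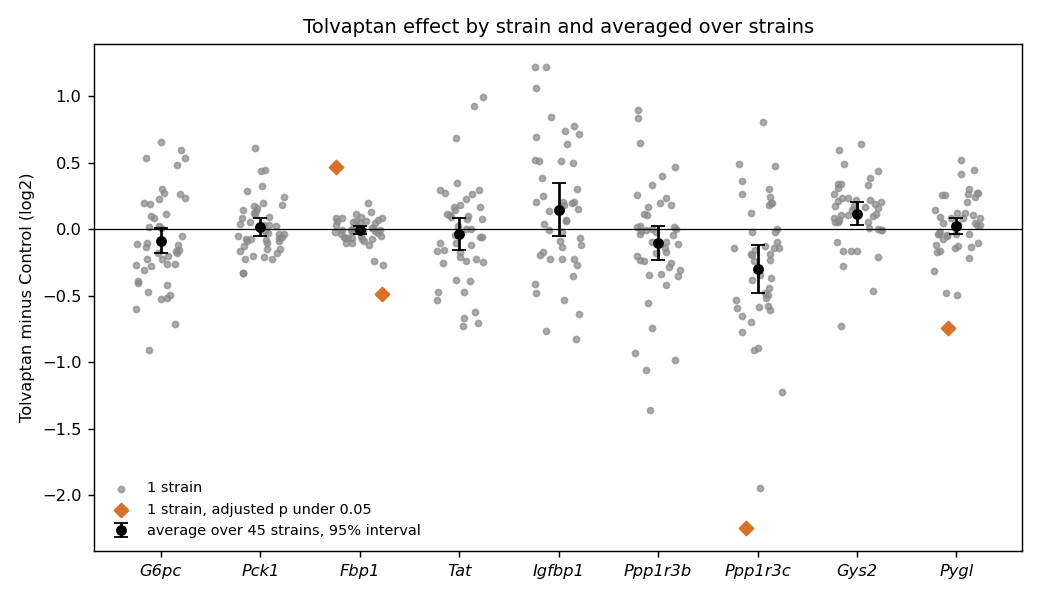
Each grey point is the difference between tolvaptan and Control mice in 1 strain, in log2 units, for the 9 measured genes; black points are the average over 45 strains with its 95% interval, and orange diamonds are the 4 differences with an adjusted p under 0.05. Ppp1r3c has the lowest average (-0.30) and the widest downward tail, and the points of Fbp1 lie closest to 0.

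The last enzymes of gluconeogenesis stayed near their Control levels on average. G6pc codes for the catalytic subunit of glucose-6-phosphatase, which releases free glucose. In Control livers its log2 level ran from 10.06 to 12.82 with a median of 11.53, and in tolvaptan livers from 9.76 to 12.84 with a median of 11.43. The ranges overlapped almost completely. The averaged change was -0.085 ± 0.048 (SE), a fold of 0.943 with a 95% interval of 0.883 to 1.01, and it did not pass the test (limma adjusted p = 0.588). The difference was above 0 in 18 of 45 strains.

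Fbp1 codes for fructose-1,6-bisphosphatase, the enzyme that opposes phosphofructokinase. It ran from 11.39 to 13.21 with a median of 12.87 in Control livers and from 11.60 to 13.19 with a median of 12.89 in tolvaptan livers. Its averaged change was -0.0077 ± 0.015 (limma adjusted p = 0.929), which bounds the fold between 0.974 and 1.02. Its spread between mice of 1 strain and treatment was among the smallest on the array, with a residual SD of 0.14 that exceeded that of only 0.467% of genes. A few mice stood far below the rest, and they are described with their strains below.

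Pck1 codes for cytosolic phosphoenolpyruvate carboxykinase. The probe set listed for it gave log2 values from 1.55 to 3.94 in Control livers and from 1.35 to 3.85 in tolvaptan livers, and it was above its own array's median on 40 of 354 arrays. These values lie at the level of undetected probe sets and give no level of Pck1 in these livers. That probe set changed by 0.018 ± 0.035 on average (limma adjusted p = 0.928).

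The hormone-responsive genes Tat and Igfbp1 also did not pass on average. Tat codes for tyrosine aminotransferase, a classic glucocorticoid-induced enzyme of amino acid breakdown. It ran from 9.61 to 12.56 (median 11.19) in Control livers and from 9.28 to 12.79 (median 11.25) in tolvaptan livers, and 5 tolvaptan mice lay above the highest Control mouse. On average it changed by -0.035 ± 0.060 (limma adjusted p = 0.914), with 21 of 45 strains above 0.

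Igfbp1 codes for insulin-like growth factor binding protein 1, a secreted protein whose transcription insulin represses. It ran from 6.97 to 13.76 (median 11.59) in Control livers and from 9.11 to 13.85 (median 11.65) in tolvaptan livers. Its residual SD of 0.95 exceeded that of 99.3% of genes. Averaged over strains it changed by 0.15 ± 0.10 (limma adjusted p = 0.693), with 26 of 45 strains above 0. Scan 1 gave -0.20 and scans 2 to 5 gave 0.19, 0.37, 0.16 and 0.40, so the sign differed between the scan with 1 mouse per strain and the later ones.

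Among the glycogen genes, the synthase and the targeting subunit Ppp1r3c had the smallest unadjusted p-values of the 9 genes. Gys2 codes for the liver form of glycogen synthase. It ran from 6.94 to 9.78 (median 8.19) in Control livers and from 6.57 to 9.56 (median 8.35) in tolvaptan livers. The averaged change was 0.12 ± 0.044, a fold of 1.08 with a 95% interval of 1.02 to 1.15. It was above 0 in 35 of 45 strains and in each of the 5 scans that gave a value, from 0.014 in scan 1 to 0.19 in scan 4. The limma p was 0.0083 before adjustment and 0.281 after it.

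Pygl codes for liver glycogen phosphorylase, which frees glucose-1-phosphate from glycogen. It ran from 9.50 to 11.62 (median 10.72) in Control livers and from 8.84 to 11.78 (median 10.75) in tolvaptan livers. Over the strains it changed by 0.022 ± 0.031 (limma adjusted p = 0.884), with 25 of 45 strains above 0, and its sign differed between scans.

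Ppp1r3b codes for the targeting subunit of protein phosphatase 1 that is most abundant in liver. It ran from 6.45 to 9.99 (median 8.37) in Control livers and from 5.49 to 9.69 (median 8.35) in tolvaptan livers. Both tails of the tolvaptan group lay lower, with 7 tolvaptan mice under the lowest Control mouse and 4 Control mice over the highest tolvaptan mouse. These tails pool strains of different levels. The lowest tolvaptan value, 5.49, came from OR13421, where the Control mean was 7.40. Without the arrays off their labelled strain that mean was 6.79 (n = 2), the lowest of all strains. It changed by -0.10 ± 0.065 on average (limma adjusted p = 0.669), with 18 of 45 strains above 0.

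Ppp1r3c codes for a second such subunit, also known as protein targeting to glycogen. It ran from 7.11 to 10.88 (median 9.13) in Control livers and from 2.71 to 10.97 (median 8.87) in tolvaptan livers. The averaged change was -0.30 ± 0.090, a fold of 0.812 with a 95% interval of 0.718 to 0.919. It was below 0 in 33 of 45 strains and in each of the 5 scans that gave a value, from -0.18 in scan 2 to -0.49 in scan 3. The limma p was 0.00104 before adjustment and 0.106 after it. Without strain AU8049 the change was -0.26 (adjusted p = 0.204), and without strain OR5119 it was also -0.26 (adjusted p = 0.235).

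The lower tail of Ppp1r3c was made of tolvaptan mice. The 8 lowest of the 354 values, from 2.71 to 7.08, all belonged to tolvaptan mice and lay under the lowest Control value of 7.11. They came from 6 strains, with 2 mice each from AU8049 (3.47 and 6.80) and OR5119 (2.71 and 6.98) and 1 each from AU8046 (5.94), IL16513 (6.67), OR3252 (6.99) and IL16680 (7.08). None of these 8 arrays was off its labelled strain. Igfbp1 and Tat read 13.52 and 12.66 in the AU8046 mouse, and 12.38 and 12.00 in the IL16513 mouse. They read 12.15 and 10.98 in the OR3252 mouse, and 12.03 and 11.63 in the IL16680 mouse. Array quality moved with part of the tail: the interquartile range of an array's deviations from the probe-set medians was 0.67 on the lowest array and 0.65 on the next, the 11th and 13th widest of 354, while the array of the IL16513 mouse ranked 253. The part of array quality in the low values was not tested.

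**Figure D2:**
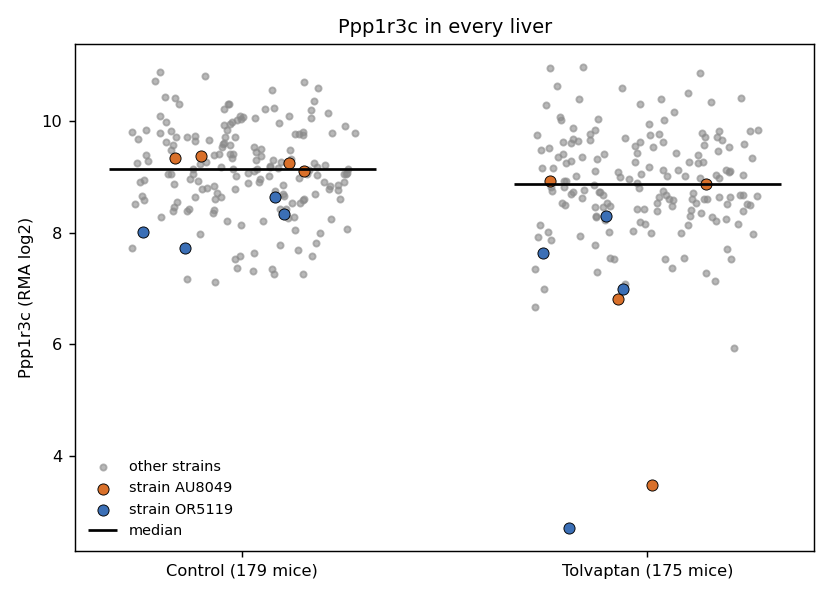
Each point is the log2 RMA level of Ppp1r3c in 1 liver, with the mice of AU8049 in orange, those of OR5119 in blue and the group median as a bar. The 8 lowest livers, from 2.71 to 7.08, are all in the tolvaptan group, and 2 of them lie under 4.

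A second probe set of Ppp1r3c, dimmer at a mean of 4.93 against an array median near 2.89, gave the same sign but passed neither on average nor in AU8049. Its averaged change was -0.20 ± 0.079 (limma adjusted p = 0.324), with 13 of 45 strains above 0, and over the 354 arrays, which both probe sets share, it correlated with the first at r = 0.83. It read 2.94 in the OR5119 mouse with the lowest value, 3.32 in AU8049 mouse 345 and 3.87 in AU8049 mouse 346, and 2 tolvaptan mice lay under its lowest Control value of 3.10.

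No member passed the test of a tolvaptan effect that differs between strains (limma F test, 0 of 9 adjusted p under 0.05, against 3 genes or 0.0212% of all genes). Fbp1 had the lowest unadjusted p of the 9 at 0.00724 (adjusted p = 0.51) and was the only 1 of them under 0.05, and Igfbp1 had the highest at 0.992. For this F test too, the share of all genes under 0.05 before adjustment is not given here. Tested strain by strain with 1 spread shared by all strains, 4 of 405 pairs of gene and strain passed, against 0.281% of all pairs of gene and strain. The 4 were Ppp1r3c in AU8049, Fbp1 and Pygl in OR5119, and Fbp1 in AU8024. When limma was fitted on each strain's own arrays alone, 0 of the 405 pairs passed, and 26 had an unadjusted p under 0.05, beside 5.29% of all pairs of gene and strain; 41 pairs passed among all genes.

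In AU8049, Ppp1r3c fell by 2.25 ± 0.60 on the log2 scale (limma adjusted p = 0.00889, n = 4 against 4), in a strain where 5.4% of all genes were called and 3.74% were called lower. The Control mice read 9.33, 9.36, 9.25 and 9.11. The tolvaptan mice read 3.47, 6.80, 8.87 and 8.93. Every tolvaptan mouse was under every Control mouse, but mice 345 and 346 held nearly all of the difference. On the second, dimmer probe set of Ppp1r3c the difference in this strain was -1.21 and did not pass (limma adjusted p = 0.176). Without mouse 345 the difference was -1.05 (adjusted p = 0.694), without mouse 346 it was -2.16 (adjusted p = 0.122), and with the strain fitted on its own 8 arrays the adjusted p was 0.45.

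The same 2 mice of AU8049 stood out in other members. Igfbp1 read 13.70 in mouse 345 and 13.46 in mouse 346, against 10.27 to 12.46 in the Control mice and 12.08 and 10.90 in the other tolvaptan mice. Tat read 12.52 and 12.79 in them, against 10.37 to 10.95 in the Control mice and 10.98 and 10.26 in the other tolvaptan mice. Neither gene passed over the strain as a whole, with a difference of 1.22 ± 0.67 for Igfbp1 (limma adjusted p = 0.347). Ppp1r3b differed by -1.06 ± 0.43 in this strain (limma adjusted p = 0.141).

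Beside these values, the mean of the 5 Kupffer cell markers of AU8049 ran from 6.05 to 6.35 in Control mice and from 5.41 to 5.92 in tolvaptan mice. The mean of the hepatocyte markers ran from 13.24 to 13.30 and from 13.27 to 13.37, and the neutrophil markers from 2.84 to 3.41 and from 3.26 to 3.89. The part of cell makeup in the Ppp1r3c values was not tested.

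In OR5119, Fbp1 fell by 0.48 ± 0.10 (limma adjusted p = 0.00123), beside 1.9% of all genes called and 0.913% called lower. The Control mice read 12.96, 12.85, 12.78 and 13.08, and the tolvaptan mice read 12.44, 12.80, 12.18 and 12.34. The groups overlapped by 1 mouse on each side. The call held when each mouse was left out in turn, with differences from -0.60 to -0.40 and the highest adjusted p at 0.0457. Without the Control array off its labelled strain (mouse 364) the difference was -0.42 (adjusted p = 0.0128), and without scan 1, which holds 1 mouse of each treatment, it was -0.36 (adjusted p = 0.19).

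Pygl fell in the same strain by 0.74 ± 0.21 (limma adjusted p = 0.0306). The Control mice read 9.79, 10.20, 9.94 and 11.31, and the highest of these is the array off its labelled strain. The tolvaptan mice read 10.10, 10.44, 9.27 and 8.84. Without that array the difference was -0.43 (adjusted p = 0.365), without tolvaptan mouse 367 it was -0.61 (adjusted p = 0.21), and without tolvaptan mouse 368 it was -0.43 (adjusted p = 0.552).

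Mouse 368 of OR5119 was extreme in most members. Its array had the lowest correlation with its labelled strain (0.68) of all arrays not called off their strain. Its deviations from the probe-set medians were the 11th widest of 354, and the part of array quality was not tested. It had the lowest Ppp1r3c (2.71), the lowest Pygl (8.84) and the highest Igfbp1 (13.85) of all 354 mice, and its Gys2 of 6.57 was under the lowest Control mouse of the study (6.94). Its Tat was 12.44, against 11.06 to 11.86 in the Control mice of the strain. Mouse 367 showed the same directions at smaller size, with Ppp1r3c at 6.98, Pygl at 9.27, Igfbp1 at 12.99 and Tat at 11.94. The other tolvaptan mice of the strain, 365 and 366, had the opposite pattern for Igfbp1 (10.08 and 10.10) and Tat (10.47 and 10.22), both under the strain's Control mice.

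Over the strain, Ppp1r3c differed by -1.95 ± 0.61 (limma adjusted p = 0.0646), G6pc by -0.91 ± 0.32 (adjusted p = 0.137) and Gys2 by -0.73 ± 0.29 (adjusted p = 0.227). The sinusoidal endothelial markers ran from 7.24 to 7.48 in the Control mice of OR5119 and from 6.69 to 7.22 in its tolvaptan mice. The hepatocyte markers ran from 13.16 to 13.36 and from 13.18 to 13.33. The part of cell makeup in the OR5119 values was not tested.

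**Figure D3:**
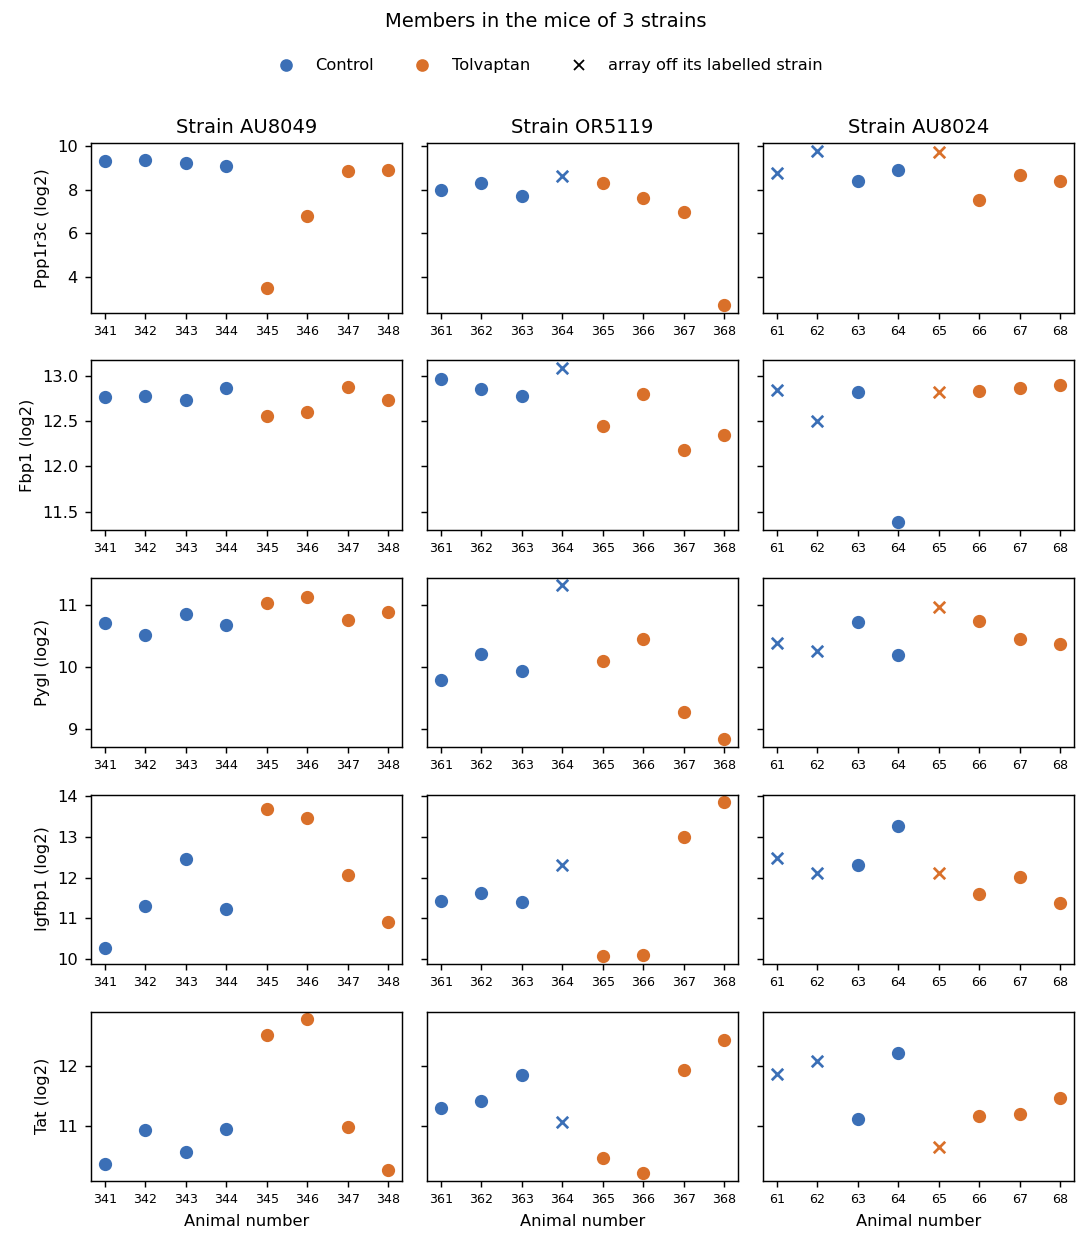
Each point is the log2 RMA level of 1 mouse for Ppp1r3c, Fbp1, Pygl, Igfbp1 and Tat in AU8049, OR5119 and AU8024, with Control in blue, tolvaptan in orange and a cross for an array off its labelled strain. The low Ppp1r3c values of mice 345, 346, 367 and 368 sit above high Igfbp1 and Tat values of the same mice. Over all 354 mice within strain and treatment, Ppp1r3c correlated with Igfbp1 at r = -0.016 and with Tat at -0.083. Within Control mice the 2 values were 0.12 and 0.090, and within tolvaptan mice -0.14 and -0.20. The pattern of these mice was thus weak over the tolvaptan group, where both signs were opposite to those in Control mice.

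In AU8024, Fbp1 was higher by 0.46 ± 0.10 in tolvaptan mice (limma adjusted p = 0.0101), beside 0.566% of all genes called in the strain and 0.312% called higher. The Control mice read 12.85, 12.50, 12.82 and 11.39, and the tolvaptan mice read 12.82, 12.83, 12.86 and 12.90. The difference was held by Control mouse 64: without it the value was 0.12 (adjusted p = 0.645). The strain had 3 arrays off its label, and without them the difference was 0.76 (adjusted p = 3.9e-05), resting on 2 Control mice. Kupffer cell markers in AU8024 ran from 4.81 to 6.66 in Control mice and from 5.95 to 6.83 in tolvaptan mice, and their part was not tested.

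The mice with the lowest Fbp1 of the study came from both treatments. Control mouse 64 of AU8024 (11.39) and tolvaptan mouse 87 of AU8033 (11.60) were followed by OR5119 mouse 367 (12.18), OR3032 tolvaptan mouse 438 (12.22) and OR5119 mouse 368 (12.34). These 5 mice had Igfbp1 between 12.99 and 13.85 and Tat between 11.94 and 12.56, and their G6pc lay between 10.10 and 11.19. The next 3 were all tolvaptan mice. They were AU8052 mouse 355 (Fbp1 12.42, Igfbp1 11.69, Tat 11.75), OR5119 mouse 365 (12.44, 10.08 and 10.47) and AU8052 mouse 357 (12.49, 12.25 and 12.02). High Igfbp1 and Tat therefore did not go with every low Fbp1 value, since mouse 365 lay under the Control medians of 11.59 and 11.19. G6pc was below its Control median of 11.53 in all 8 of these mice.

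Leaving out the arrays off their labelled strain brought 5 calls among the 405 pairs of gene and strain, against 0.319% of all pairs (7.31% of genes in AU8049, 2.07% in OR5119, 0.234% in AU8024 and 3.55% in AU8033). Ppp1r3c in AU8049 and Fbp1 in OR5119 and AU8024 were among them, Pygl in OR5119 was not, and AU8033 added Fbp1 (-0.43, limma adjusted p = 0.0319) and the near-background probe set of Pck1 (-0.98, adjusted p = 0.0192). In AU8033 the full set of arrays gave -0.27 ± 0.10 for Fbp1 (adjusted p = 0.395). The Fbp1 call in AU8033 rests on mouse 87. The other tolvaptan mice kept in that fit read 12.83 and 12.91, against 12.95 and 12.80 in the Control mice kept. Both AU8033 calls rest on these 2 Control mice, 83 and 84. The arrays left out read 12.80 in tolvaptan mouse 86, and 12.72 and 12.75 in Control mice 81 and 82.

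Apart from the calls given above, no pair of gene and strain passed the test, and the strain with the largest movement differed between genes. G6pc moved from -0.91 in OR5119 to 0.66 in AU8046 (-0.77 and 0.83 without the arrays off their labelled strain), and Igfbp1 from -0.82 in OR13140 to 1.22 in AU8049, strains with none of those arrays. Gys2 moved from -0.73 in OR5119 (-0.48 without them) to 0.64 in AU8048, and Pygl from -0.74 in OR5119 (-0.43 without them) to 0.52 in IL16513. For Tat, Igfbp1, Ppp1r3b, Ppp1r3c and Pygl, at least 1 extreme place went to another strain when those arrays were left out. For Pygl, AU8004 then lay lower than OR5119, at -0.48. Tat moved from -0.73 in AU8018 to 0.996 in AU8002 with all arrays, and the same strains gave -0.23 and 0.42 without them, where the range ran from -0.67 in OR15156 to 0.93 in AU8049. Ppp1r3b moved from -1.36 in OR13421 to 0.90 in AU18042 with all arrays, and these strains gave -0.67 and 0.21 without them, where the range ran from -1.11 in IL16211 to 0.86 in AU8034. The highest Ppp1r3c difference, 0.81 in AU18042, became 0.26, and AU8034 was then the highest at 0.998. The lowest, the called -2.25 in AU8049, involved none of those arrays. Without them, the widest Igfbp1 differences were -1.15 in AU8024 and 2.13 in IL16750 (limma adjusted p = 0.597 and 0.323).

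In fasted Control livers, 8 of the 9 genes differed between strains (limma F test, adjusted p under 0.05), beside 74.9% of all genes. G6pc was the exception at an adjusted p of 0.161, and it passed at 0.0267 without the arrays off their labelled strain, where 9 of 9 genes and 73.6% of all genes were called. A share of this kind is close to the background, so strain differences are the usual state of genes on these arrays. Strains explained between 27.6% (G6pc) and 58.5% (the near-background Pck1 probe set) of the variance of a gene among Control mice, a share that also counts chance differences between groups of 4. That Pck1 probe set is 1 of the 8 called (limma F test, adjusted p = 2.0e-11). Its call describes the signal of the probe set and gives no level of Pck1.

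**Figure D4:**
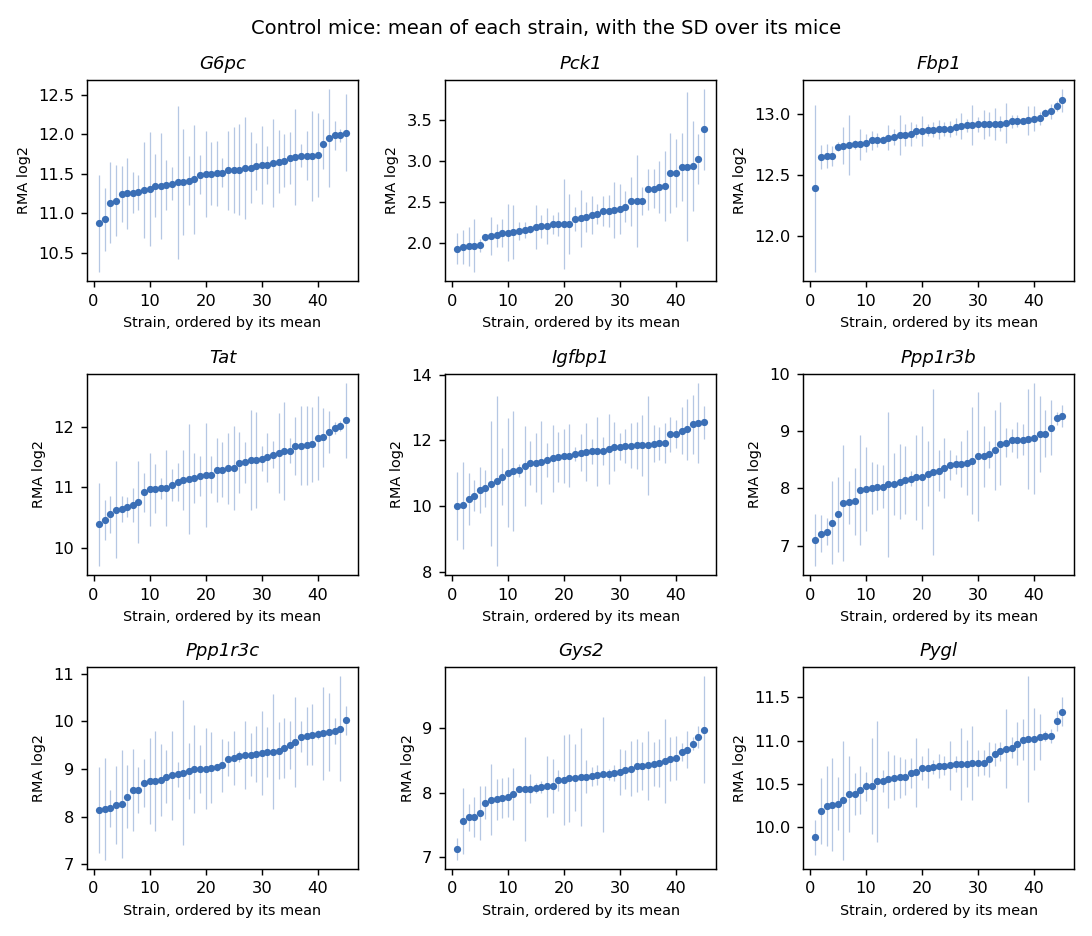
Each panel gives 1 gene, with the mean log2 RMA level of the Control mice of each of the 45 strains in rising order and the SD over its mice as a bar. The lowest Fbp1 mean, AU8024 at 12.39, carries the widest bar of its panel, since mouse 64 reads 11.39 and the other Control mice of that strain 12.50 to 12.85.

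Among the gluconeogenic enzymes, the Control mean of G6pc ran from 10.88 ± 0.61 (SD, n = 4) in IL16188 and 10.92 ± 0.39 in OR15155 to 11.99 ± 0.082 in OR13067 and 12.02 ± 0.49 in AU8005. Fbp1 ran from 12.39 ± 0.69 in AU8024 and 12.64 ± 0.10 in OR773 to 13.06 ± 0.041 in AU8043 and 13.11 ± 0.094 in AU8027. The AU8024 mean rests on mouse 64 (11.39), as the other Control mice of the strain read 12.50 to 12.85, mice 61 and 62 among them being arrays off their labelled strain. With 1 spread shared by all strains, 0 of the 44 gaps between neighbours in the order exceeded the 95% interval for 8 of the 9 genes. For Fbp1 it was 1 of 44, the gap of 0.26 between AU8024 and OR773, which is smaller than the SD of 0.69 within AU8024. Neighbours in a sorted order lie close by construction, so these gaps do not show whether strains differ. Strains further apart in the order were not tested pair by pair. Without the arrays off their labelled strain, the lowest G6pc mean was 10.84 in AU8024 (n = 2) and the highest 12.10 in AU8005 (n = 3), and the ends of the Fbp1 order were the same strains at 12.10 (n = 2) and 13.11.

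Tat ran from 10.39 ± 0.68 in AU8002 and 10.46 ± 0.33 in OR3393 to 12.01 ± 0.082 in AU18042 and 12.11 ± 0.62 in OR3609, a 3.31-fold span of strain means (adjusted p = 2.2e-06). Igfbp1 had the widest span of the 9 genes, 5.83-fold, from 10.00 ± 1.04 in AU8016 and 10.02 ± 1.32 in AU8027 to 12.54 ± 1.22 in OR3609 and 12.54 ± 0.51 in AU8024 (adjusted p = 0.000963). Its SD within strains was also the widest at 0.98. Without the arrays off their labelled strain, the lowest Tat strain was OR3393 at 10.46, since AU8002 has 2 such Control arrays, and AU8024 was the highest for Igfbp1 at 12.79 (n = 2).

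Gys2 ran from 7.13 ± 0.16 in OR15155 and 7.56 ± 0.52 in IL16188 to 8.86 ± 0.17 in AU8027 and 8.97 ± 0.82 in IL16211 (adjusted p = 2.3e-06). Pygl ran from 9.88 ± 0.20 in IL16188 and 10.19 ± 0.38 in OR13421 to 11.23 ± 0.11 in AU8027 and 11.34 ± 0.17 in AU8004 (adjusted p = 5.9e-10). AU8027 was second highest and IL16188 among the lowest 2 strains for both the synthase and the phosphorylase. Without the arrays off their labelled strain, AU8027 was the highest strain for Gys2, and the ends of the Pygl order were again IL16188 (9.85, n = 3) and AU8004. The tolvaptan mice of OR15155, the strain with the lowest Gys2, read 7.12 ± 0.19, and those of IL16188, the strain with the lowest Pygl, read 10.15 ± 0.18.

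Ppp1r3b ran from 7.11 ± 0.45 in IL16750 and 7.21 ± 0.32 in OR3415 to 9.22 ± 0.12 (n = 3) in AU8052 and 9.26 ± 0.19 in AU8018, a 4.45-fold span (adjusted p = 1.7e-05). Ppp1r3c ran from 8.14 ± 0.90 in IL16513 and 8.16 ± 1.06 in AU8010 to 9.85 ± 1.10 in IL16750 and 10.02 ± 0.30 (n = 3) in AU8052 (adjusted p = 0.0436). AU8052 was high for both subunits. Of the 4 Control arrays of IL16750, mice 121 and 124 are off their labelled strain, so its place in both orders rests in part on them. Without such arrays, the lowest Ppp1r3b strain was OR13421 (6.79, n = 2) and the highest AU8018 (9.28, n = 3), and the lowest Ppp1r3c strain was AU8034 (7.82, n = 2) and the highest AU8052. Ppp1r3c was the member with the adjusted p closest to the threshold among the 8 called.

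G6pc, Tat and Igfbp1 varied together from mouse to mouse. Across the 354 mice, after the mean of each strain and treatment and the scan were taken out, G6pc and Igfbp1 correlated at r = 0.67, Tat and Igfbp1 at 0.60, and G6pc and Tat at 0.47. The values were close in the 2 treatments (0.69 in Control and 0.66 in tolvaptan mice for G6pc and Igfbp1) and without the arrays off their labelled strain (0.68 over 320 mice). Mice of 1 strain share a genome, and all values of a mouse share an array, so these correlations are descriptions.

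The 4 glycogen genes did not form 1 such group. Gys2 and Pygl correlated at r = 0.40 over the 354 mice, Ppp1r3b and Ppp1r3c at 0.33, Ppp1r3b and Pygl at 0.32, and Ppp1r3c and Pygl at 0.18. Gys2 stood at 0.071 with Ppp1r3b and at -0.12 with Ppp1r3c, against 0.16 with G6pc. Over the 45 Control strain means, Gys2 and Pygl reached 0.59 (0.54 without the arrays off their labelled strain), and Tat and Igfbp1 0.61 (0.54). G6pc and Tat reached 0.52 (0.37), and G6pc and Igfbp1 0.51 (0.41). Fbp1 correlated with G6pc at 0.21 over mice and with Igfbp1 at -0.36 (-0.37) over Control strain means.

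**Figure D5:**
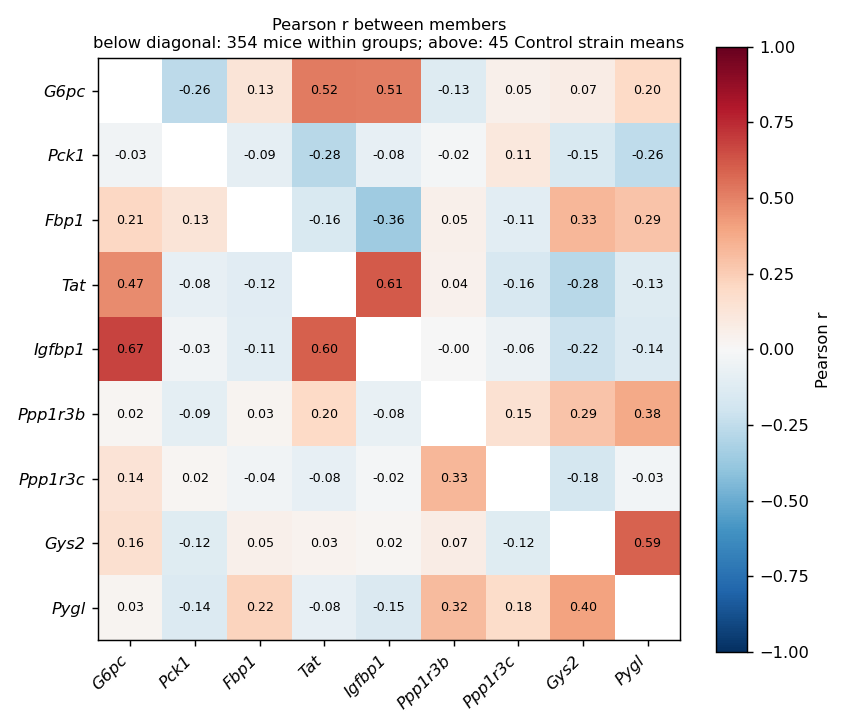
The grid gives Pearson's r between pairs of the 9 genes, over 354 mice within strain and treatment under the diagonal and over 45 Control strain means above it. G6pc, Tat and Igfbp1 form 1 block (0.47 to 0.67 under the diagonal), and Gys2 and Pygl form the strongest pair among the glycogen genes (0.40).

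The genes whose Control strain means were most like each member, by Pearson's r over 45 strains, were these, with r of the same pair without the arrays off their labelled strain given second. Tat was nearest to Ddit4 (r = 0.79 and 0.81), a stress- and glucocorticoid-induced inhibitor of mTORC1 signalling, and to the urea cycle gene Asl (0.77 and 0.69). Igfbp1 was nearest to Ddit4 (0.72 and 0.71) and to the phosphatase gene Dusp1 (0.65 and 0.62). Both Tat and Igfbp1 thus shared the same nearest gene, and within strain and treatment they correlated with it at 0.73 and 0.62 over 354 mice.

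In the same order of values, Pygl was nearest to the bile acid transporter gene Slc10a1 (0.84 and 0.78) and to Cpsf2 (0.82 and 0.72). Gys2 was nearest to Slc17a5 (0.74 and 0.71) and to Cpt1a (0.73 and 0.71), which codes for the enzyme that admits fatty acids to mitochondria. G6pc was nearest to Lpin1 (0.58 and 0.43) and the urea cycle gene Ass1 (0.58 and 0.37), and it correlated with them at 0.22 and 0.30 over mice. Fbp1 was nearest to Ust (0.60 and 0.61) and AU021092 (0.52 and 0.46), and Ppp1r3b to the copper transporter gene Slc31a1 (0.73 and 0.68) and Asph (0.70 and 0.60). Ppp1r3c was nearest to Aunip (0.50 and 0.40) and Bdkrb2 (0.50 and 0.48), with which it correlated at -0.00036 and 0.021 over mice. The Pck1 probe set was nearest to Rdh16f2 (0.69 and 0.70) and Rdh7 (0.65 and 0.56).

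Beyond the members, 5 lists of pathway genes were tested on the same fit, and 0 of their 72 tested genes passed for the averaged tolvaptan effect, beside the 0.496% of all genes (limma). At an unadjusted p under 0.05 there were 2 of the 12 enzymes, 1 of the 9 glycolysis genes, 2 of the 22 glycogen genes, 0 of the 21 signalling genes and 1 of the 8 glucocorticoid-responsive genes. The share of all genes at that unadjusted cut is not given here, and the 0.496% is for adjusted p-values. These unadjusted counts are therefore not read as a result about the lists. Of the 12 other gluconeogenic and shared glycolytic enzymes, 9 had a change above 0 and 0 passed. Pcx, which codes for pyruvate carboxylase, the entry step from pyruvate, changed by -0.077 ± 0.023 (limma adjusted p = 0.106), and by -0.12 (adjusted p = 0.0151) over the 26 strains without an array off its label. Pck2, the mitochondrial carboxykinase, changed by 0.13 ± 0.043 (adjusted p = 0.175).

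Of 9 genes of glucose uptake and glycolysis control, 0 passed. Pklr, the liver pyruvate kinase, changed by 0.12 ± 0.056 (limma adjusted p = 0.439), and Pdk4, a kinase that shuts off pyruvate dehydrogenase, by 0.13 ± 0.14 (adjusted p = 0.853). Of 22 other glycogen enzymes and targeting subunits, 17 had a change above 0 and 0 passed, with a median change of 0.028. Ppp1r3g, another targeting subunit, had the largest change of that list at 0.38 ± 0.12 (adjusted p = 0.161, above 0 in 30 of 45 strains), opposite in sign to Ppp1r3c, and the branching enzyme gene Gbe1 changed by 0.12 ± 0.048 (adjusted p = 0.357).

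Of 21 genes of fasting hormone signalling and its transcription factors, 0 passed, with Sik1, a cAMP-induced kinase, at 0.18 ± 0.099 (limma adjusted p = 0.581) and the corepressor gene Nr0b2 at -0.12 ± 0.073 (adjusted p = 0.64). Of 8 glucocorticoid-responsive genes, 0 passed, with Tsc22d3 at -0.11 ± 0.047 (adjusted p = 0.352) and Dusp1 at -0.10 ± 0.083 (adjusted p = 0.761). Between strains of Control mice, 20 of the 22 glycogen genes, 17 of the 21 signalling genes, 9 of the 12 enzymes, 7 of the 9 glycolysis genes and 7 of the 8 glucocorticoid-responsive genes were called, beside the 74.9% of all genes.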

How the data were processed

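Livers of 354 mice were hybridised to Affymetrix HT_MG-430 PM arrays. The deposited table holds log2 values from RMA, run in Affymetrix Expression Console per the submitters' processing notes; the log2 values were used as deposited, with no further normalization, and versions are not given in the sources used here. Of 42597 probe sets, 27691 had 1 gene symbol in the platform annotation, 493 several and 14376 none, and 37 were controls. Where several single-symbol probe sets named a gene, the one brightest on average was used, and 14125 of 16670 genes were kept because they exceeded the array median on at least 4 arrays. Models were fitted with limma 3.58.1 in R 4.3.3, with a mean for each strain and treatment and a term for the 6 scan days. Contrasts were the tolvaptan effect averaged over strains with equal weight, its dependence on strain, Control differences between strains, and the effect in each strain. P-values were adjusted by Benjamini-Hochberg over all genes, within a strain for single strains, and called under 0.05. Ranges and strain means are of the RMA values. The models were tested on simulated data. A marker level is the mean log2 value of the list's genes in a liver.

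Alternatives are listed with the results under the dependence on processing. Arrays off their labelled strain correlated under 0.5, over 500 strain-separating probe sets, with the median profile of the other mice of that strain. Replicates are separate mice, and mouse numbers are not shared between groups. The named genes were all members, the list genes that passed or, with none, the 2 with the largest change, the 2 genes nearest to each member over Control strains, and the strains at the ends of each order or with a call. The members and lists were chosen with earlier results of these data known. Of the members' symbols, 8 of 10 had a RefSeq promoter.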

Additional observations from a re-analysis of the deposited data

Results flagged for a closer look

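Among the 66 groups of 4 mice that the strains named for a member contain, 4 had a mouse far from the others by Dixon's criterion, where chance gives about 1 in 20 groups. Fbp1 read 11.60 in AU8033 tolvaptan mouse 87 and 12.80 to 12.91 in the other mice of that group. Tat read 11.19 in OR3609 Control mouse 443 and 12.33 to 12.50 in the others of the strain with the highest Control mean. Gys2 read 7.78 in IL16211 tolvaptan mouse 227 and 9.05 to 9.28 in the others. The near-background probe set of Pck1 read 3.34 in AU8024 Control mouse 63 and 2.16 to 2.30 in the others, of which mice 61 and 62 are arrays off their labelled strain. The others of the Fbp1 group include mouse 86 and those of the Gys2 group mouse 226, both on such arrays. None of the 4 mice named was itself on such an array. The 4 groups flagged of 66 lie near the chance rate of 1 in 20.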

How the results depend on the processing

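The count of members called on average was 0 under 14 of the 15 alternatives and without each strain in turn, and 2 over only the strains with no array off its label, where 1 pathway gene was called. Without each strain in turn, 0 to 1 pathway genes were called. The count of members that differ between Control strains (8) became 4 within scan 2, 4 within scan 3, 1 within scan 4 and 1 within scan 5, fits chosen after seeing the data that hold fewer strains and mice. The 4 calls within single strains became 0 with each strain fitted on its own arrays, and 3 to 6 without 1 mouse each. Changes that turned sign were not called: over the strains with no array off its label Pck1 (-0.0078); within scan 1 Pck1 (-0.048), Fbp1 (0.031), Igfbp1 (-0.20), Pygl (-0.027), Nr0b2 (0.055) and Dusp1 (0.0079); within scan 2 Fbp1 (0.032) and Sik1 (-0.075); within scan 4 Pygl (-0.057); within scan 5 Tat (0.29), Pygl (-0.14), Pklr (-0.089) and Nr0b2 (0.37). Without each strain in turn Fbp1 ran from -0.019 to 0.0033, the latter without OR5119. The cause was not tested. Over all genes, calls for the averaged effect ranged from 0 to 300 between alternatives. Pck1 has values near background, and Ppargc1a has none. Groups of 4 limit what single strains can show. No paired analysis was possible because mouse numbers are not shared between groups.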
